A study of Homo sapiens with 12 samples.

Results

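Sense overlapping circular RNAs (circRNAs) are a class of the authors' table beside the exonic and intronic ones; the name usually means that a circRNA overlaps a gene on the same strand without fitting its annotated exons, and the exact criterion is not given in the sources used here. Members were all circRNAs whose class in the authors' table was sense overlapping, which gave 2673 of 17938 listed circRNAs (14.9%). Of these, 2091 had at least 1 read and 582 had none in any of the libraries used here. The comparison classes were 14140 exonic and 1064 intronic circRNAs.

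A circRNA forms when a downstream splice site is joined back to an upstream one, so that its ends are linked and it escapes exonucleases that degrade linear RNA from its ends. Reads across this back-splice junction are what a sequencing count of circRNAs measures. A junction alone gives the outer ends of the molecule and not what lies between them. For an exonic circRNA the annotated exons between the ends are taken as its sequence, while other classes can retain introns, use unannotated splice sites or join neighbouring genes. circBase is a public catalogue of circRNAs from many human cells, and an identifier in it means that the same junction has been listed before.

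The counts came from rRNA-depleted total RNA of HCT116 and Lovo, both human colorectal cancer cell lines. Each line was profiled as its sensitive, parental cells and as a resistant derivative grown in 5-fluorouracil (5-Fu) raised from 0.1 to 2 μg/ml until cells survived at least 3 days of the last dose. 5-Fu is a uracil analogue that inhibits thymidylate synthase and is incorporated into RNA and DNA. Each of the 4 groups (sensitive HCT116, resistant HCT116, sensitive Lovo, resistant Lovo) held 3 libraries. Neither separate cultures nor separate selections are stated for the libraries of a group, so a p-value here reflects the spread among these 12 libraries, which may be technical. In each line, changes from adaptation or time in culture cannot be told apart from resistance.

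Libraries held 5654 to 10535 junction reads, 92237 in all, and the members took 8706 of them (9.44%). As a check of the labelled tissue, circRNAs of 6 of 14 intestinal epithelium marker genes gave 61 reads, 0 to 19 in a library. For 9 fibroblast, 10 immune and 6 endothelium marker genes no circRNA was listed, so their 0 reads could not add to this check. Of the 20 members with enough reads to be tested, none came from a marker gene.

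The spans of sense overlapping circRNAs were long. The genomic distance between the junction ends ran from 153 to 99945 bases, with quartiles at 4234, 14131 and 31630 bases. The median was 10167.5 bases for exonic and 1589 bases for intronic circRNAs. A span over 50000 bases was found in 337 members (12.6%) against 5.91% of exonic circRNAs, and these members took 14.7% of the reads of their class, against 4.36% of exonic reads. A span under 1000 bases was found in 255 members (9.54%) and in 8.03% of exonic circRNAs. No listed circRNA of any class had a span over 100000 bases, and the longest exonic span, 99936 bases, lay close to the longest member. Whether the authors' calling stopped there is not given in the sources used here.

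For all 2673 members, as for all 1064 intronic circRNAs, the length in the authors' table equalled the whole span. That was so for 4.36% of exonic circRNAs, whose median predicted length was 571 bases. The median of 14131 bases for members is thus the span, with any intron in it, and not a length of RNA measured by reads.

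**Figure D1:**
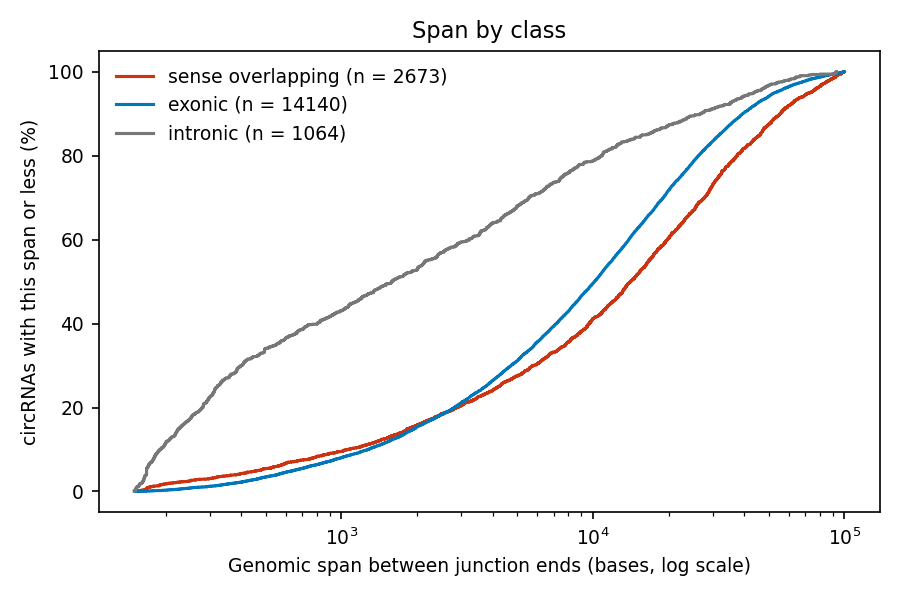
Cumulative percentage (y axis) of the 2673 sense overlapping, 14140 exonic and 1064 intronic circRNAs at or below each genomic span in bases (x axis, log scale). The sense overlapping curve lies to the right of the exonic one from the median upward, at medians of 14131 and 10167.5 bases, and both stop just under 100000 bases.

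Many members used one end of an exonic circRNA. In 941 members (35.2%) exactly 1 end was also an end of a listed exonic junction, in 470 the lower coordinate and in 471 the upper. Both ends matched in 19, and in 1713 (64.1%) neither end did. The median span was 22875 bases with 1 end matched, 40498 bases with both and 9808 bases with neither. Members with 1 matched end had 3.94 reads on average and 27.2% of them were seen in at least 2 libraries, while those with none had 2.86 reads and 18.3%. Among all members, 665 (24.9%) shared an exact end with another member. Only 23 members, with 99 reads, lay within 5 bases of an exonic junction at both ends. The span of 61 members overlapped an exonic circRNA that the table gives to a different host gene.

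The hosts were many and mostly had 1 member each. The members came from 1914 host genes, of which 1436 (75.0%) had a single member, while 44.1% of exonic host genes had a single exonic circRNA. Of intronic host genes, 80.8% had a single intronic circRNA. An exonic circRNA was listed for 1227 of the 1914 hosts (64.1%). The host transcript was a protein-coding RefSeq record for 87.1% of members and 92.6% of exonic circRNAs. The plus strand held 1396 and the minus strand 1277 members.

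The hosts with most members were MED13L, a subunit of the kinase module of Mediator, with 10, and KIAA0020, MALAT1, TRAPPC9 and PUM2 with 8 each. PUM2 encodes an RNA-binding translational repressor and TRAPPC9 a subunit of a vesicle tethering complex. MALAT1 is a nuclear long noncoding RNA, and its 8 members, 558 to 2699 bases long, had 0 reads in both Lovo groups, 5 in sensitive HCT116 and 13 in resistant HCT116. Hosts with most reads on members were MAVS (299 reads), ZNF124 (226), HLA-C (217), MED13L (200) and EPB41L5 (156). In these hosts the members held nearly the whole circular output, from 92.3% of all junction reads in EPB41L5 to 97.1% in MAVS and 100% in HLA-C. In the 564 member hosts with at least 20 reads the median share on members was 8.05%. The share exceeded 50% in 46 of these hosts and was 100% in 11.

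A small part of the members came from mitochondrial transcripts. The mitochondrial chromosome held 43 listed circRNAs, of which 20 were members (0.748% of the class) and 0 were exonic. These 20 had 105 of the 8706 member reads. The annotation name OK/SW-cl.16 was given to 7 of these members, with 55 reads. The 3 shortest members with at least 10 reads were all of this host: 162 bases (chromosome M, 8928 to 9089), 227 bases (8399 to 8625) and 263 bases (8928 to 9190). The member of 227 bases had 2, 3 and 0 reads in the sensitive and 1, 1 and 0 in the resistant HCT116 libraries. In Lovo it had 0, 3 and 1 reads when sensitive and 2, 3 and 3 when resistant. The member of 162 bases had 7 and 3 reads in the HCT116 groups and 0 in both Lovo groups. Mitochondrial genes have no introns, and what these junctions are was not tested.

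A circBase identifier was less common than in exonic circRNAs. It was given for 691 members (25.9%), against 72.8% of exonic and 16.7% of intronic circRNAs. A further 23 members were credited to other literature, and 1959 had no earlier source in the table. The 691 had 5.65 reads on average and 50.2% of them appeared in at least 2 libraries. The 1982 without an identifier had 2.42 reads and 11.7%. Their median spans were 12438 and 15031.5 bases. Weighted by reads, identifiers covered 44.7 ± 2.58% of member reads and 89.7 ± 1.10% of exonic reads in a library (SD, n = 12). The member value was the lower in 12 of 12 libraries, with a mean difference of -45.0 percentage points.

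Reads on a single member were few. Over all libraries 105 members had 1 read, 996 had 2, and 113 (4.23%) had at least 10, against 11.4% of exonic and 4.14% of intronic circRNAs. At least 100 reads were reached by 6 members. In a library, a detected member had 2.48 ± 0.264 reads and a detected exonic circRNA 2.60 ± 0.263 (SD, n = 12). The member mean was the lower in 9 of 12 libraries, a mean difference within libraries of -0.124. Counting only junctions with at least 2 reads in the library, it was the lower in 12 of 12, by a mean difference of -0.467.

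Recurrence was lower than in exonic circRNAs. Reads in at least 2 libraries were found for 21.6% of members and 44.5% of exonic circRNAs, reads in both lines for 12.8% and 31.5%, and reads in all 4 groups for 2.88% and 9.51%. All 12 libraries detected 9 members (0.337%) and 0.934% of exonic circRNAs. Within a group, 83.4% to 84.3% of its detected members were seen in 1 of its 3 libraries and 4.39% to 5.84% in all 3. For exonic circRNAs these ranges were 67.1% to 71.0% and 9.66% to 10.9%. Of the 996 members with 2 reads, 97.0% had both in 1 library, against 92.9% of such exonic circRNAs. Of the 1959 members with no earlier source, 1386 had at least 2 reads in some library, 76 reached only 1 and 497 had none. Any minimum for listing a junction is not given in the sources used here. Its part in recurrence and in mean reads was not tested.

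Fewer reads give fewer chances to recur, so the classes were also set side by side at like read totals. Among circRNAs with 3 or 4 reads, both lines were represented in 17.5% of members and 32.4% of exonic circRNAs. At 5 to 9 reads the values were 52.5% and 68.3%, at 10 to 19 reads 76.3% and 91.7%, and at 20 or more 86.5% and 98.2%. The member value was the lower in each of these ranges. They are descriptions over junctions, which share libraries and hosts.

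**Figure D2:**
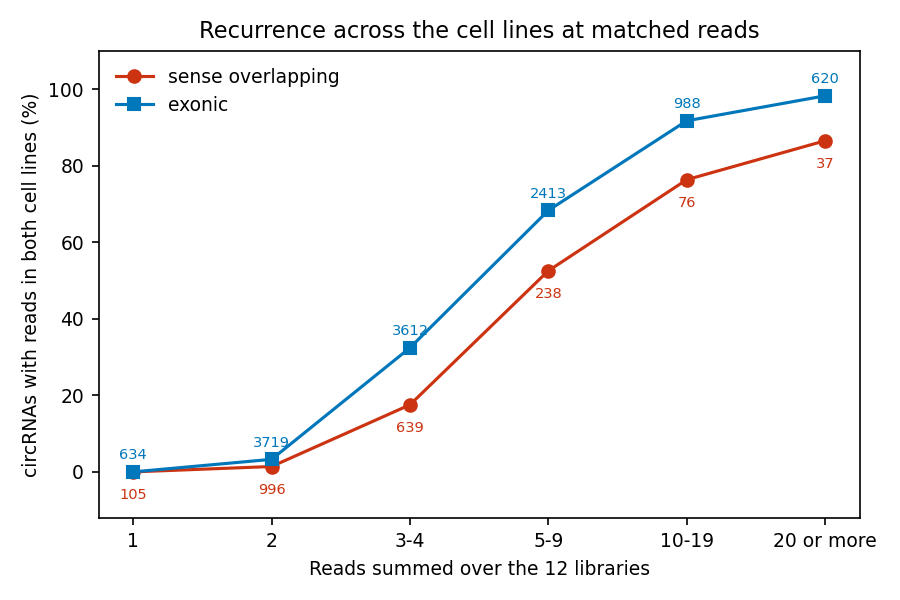
Percentage of circRNAs with reads in both cell lines (y axis) by reads summed over the 12 libraries (x axis, 6 ranges), for sense overlapping (circles) and exonic (squares) circRNAs, with the number of circRNAs printed at each point. From 3 reads upward the sense overlapping points lie below the exonic ones, at 52.5% against 68.3% for 5 to 9 reads and 86.5% against 98.2% for 20 or more.

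Some abundant members were seen in a single line. Of the 113 members with at least 10 reads, 23 (20.4%) had all of them in one line, 15 in HCT116 and 8 in Lovo. For exonic circRNAs it was 93 of 1608 (5.78%). Of the 23, 15 had no circBase identifier and 8 spanned over 50000 bases, and together they held 707 reads. Their median span was 35375 bases against 13348 bases for the others. Among spans over 50000 bases, 8 of 15 such members (53.3%) were in one line, against 8 of 55 exonic circRNAs (14.5%). For spans of 1000 to 10000 bases the shares were 10.8% and 5.28%.

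The share of a library's reads on members differed by line. It was 11.0%, 9.62% and 9.37% in sensitive HCT116 and 11.0%, 10.8% and 9.95% in resistant HCT116. In sensitive Lovo it was 8.92%, 8.63% and 7.99%, and in resistant Lovo 8.95%, 7.82% and 8.15%. In bulk RNA, fewer cells that carry a circRNA and fewer copies in each cell cannot be told apart. Each HCT116 library lay above each Lovo library, at means of 10.3 ± 0.737% and 8.41 ± 0.487% (SD, n = 6 each), 1.88 percentage points apart. The Wilson 95% intervals of single libraries, which cover counting error only, ran from 10.2% to 11.8% in sensitive HCT116 replicate 1 and from 7.32% to 8.73% in sensitive Lovo replicate 3. Other intervals overlapped between the lines, such as 8.83% to 9.94% in sensitive HCT116 replicate 3 and 8.32% to 9.61% in resistant Lovo replicate 1. The difference was 1.66 points without the 12 most read members and 1.83 points without spans over 50000 bases, both chosen after the data were seen. Library totals moved with the line as well, at 6238 to 10535 reads in HCT116 and 5654 to 7568 in Lovo. With every library thinned to 5654 reads, another measure, the share of detected circRNAs that were members, differed by 1.58 points. The part of depth in the share of reads was not tested.

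Between drug states the share moved little. In HCT116 it was 10.6 ± 0.569% in resistant and 9.995 ± 0.877% in sensitive libraries, a difference of 0.594 points, and the groups overlapped. Leaving out single libraries gave 0.280 points (without sensitive replicate 3) to 1.09 points (without sensitive replicate 1, when the groups no longer overlapped), and leaving out the 12 most read members gave 0.251 points. In Lovo it was 8.30 ± 0.579% and 8.52 ± 0.473%, a difference of -0.211 points, again with overlap (SD, n = 3 each). The Lovo difference turned to 0.206 points without the 12 most read members and to 0.0313 points without resistant replicate 2, so it has no settled direction.

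**Figure D3:**
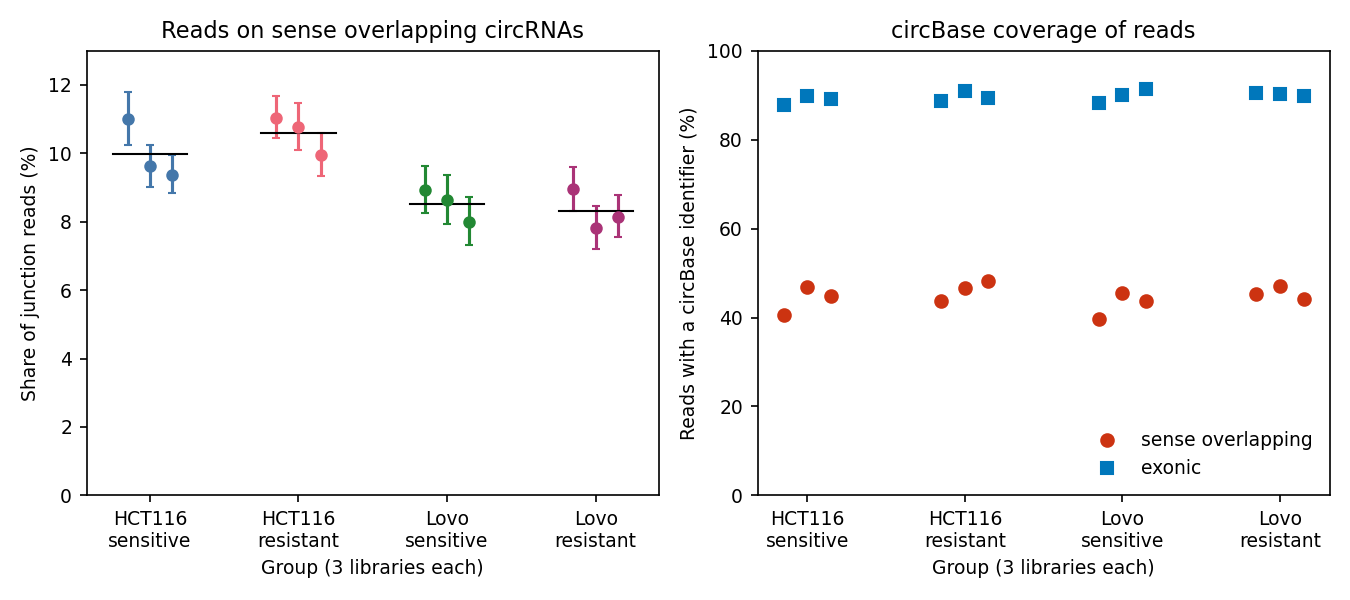
Left, the share of junction reads on sense overlapping circRNAs in percent (y axis) for the 3 libraries of each group (x axis), with Wilson 95% intervals as bars and the group mean as a line. Right, the percentage of sense overlapping (circles) and exonic (squares) reads with a circBase identifier in the same libraries. The HCT116 shares, 9.37% to 11.0%, all lie above the Lovo shares, 7.82% to 8.95%, and the right panel keeps the classes apart in each library.

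At this depth 20 members could be tested (0.748% of the class), from 17 hosts, and they held 1627 reads, 18.7% of the class total. Of these, 14 had a circBase identifier and 4 spanned over 50000 bases. The rest had too few reads. The edgeR quasi-likelihood test ran over all 300 circRNAs that passed the count minimum, of which 274 were exonic, with adjusted p-values over those 300. Levels are given as CPM, junction reads per 1000000 of a library after TMM scaling.

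The member with most reads was a junction of MAVS, the mitochondrial adaptor through which RIG-I-like RNA sensors signal. It runs from 3835205 to 3870375 on chromosome 20 (35171 bases, plus strand, hg19) and has no circBase identifier. In HCT116 it had 37, 30 and 37 reads in the sensitive libraries and 55, 48 and 50 in the resistant ones, and in all 6 Lovo libraries it had 0. HCT116 levels were 4648 ± 1270 CPM before and 6001 ± 319 CPM after selection (SD, n = 3 each). Every HCT116 library was high and every Lovo library at 0. Between the HCT116 states the levels overlapped, with the sensitive libraries reaching 6090 CPM and the resistant ones starting at 5707 CPM (log2 fold change 0.38 ± 0.33 SE, edgeR quasi-likelihood adjusted p = 0.855).

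The lower end of that junction is shared. The 4 MAVS members that start at 3835205 included one ending at 3872058 (36854 bases), with 8 and 9 reads in the HCT116 groups and 0 in both Lovo groups. The same start is an end of exonic MAVS junctions, while the upper ends were not ends of any listed exonic circRNA. In the RefSeq gene order of GRCh38.p14 the neighbours of MAVS are AP5S1 and PANK2. Gene bounds on hg19 were not used here, so which gene holds the upper end was not determined.

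Second came ZNF124, which encodes a zinc finger protein. Its 4 members all end at 247323115 on chromosome 1 (minus strand), which is also an end of an exonic ZNF124 junction, and they differ in the other end. The most read, hsa_circ_0112879 (247319708 to 247323115, 3408 bases), had 17, 35 and 24 reads in the sensitive HCT116 libraries and 11, 9 and 19 in the resistant ones. In Lovo it had 8, 5 and 6 reads when sensitive and 11, 4 and 7 when resistant. Scaled for library size, the sensitive HCT116 libraries, at 2713 to 4283 CPM, all lay above the resistant ones, the highest of which reached 2169 CPM, and above every Lovo library. Another, hsa_circ_0002922 (247318868 to 247323115, 4248 bases), had 4, 6 and 10 reads in the sensitive HCT116 libraries and 6, 9 and 15 in the resistant ones. The Lovo libraries had 0, 0 and 1 reads when sensitive and 3, 3 and 1 when resistant. Here each HCT116 library lay above each Lovo library.

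HLA-C, an MHC class I molecule that presents peptides on nucleated cells, had 3 members of about equal span. HLA-B, a near-identical gene of the same family, is the next gene in RefSeq order, so reads given to these junctions are uncertain. The 3 junctions had different patterns over the libraries, and the part of read assignment in these patterns was not tested. The longest (chromosome 6, 31238163 to 31323269, 85107 bases) had 2, 1 and 2 reads in the sensitive HCT116 libraries and 16, 7 and 1 in the resistant ones. In Lovo the sensitive libraries had 18, 21 and 25 reads and the resistant ones 16, 15 and 16. It was low in sensitive HCT116 and high in Lovo, with a wide spread in resistant HCT116. The second (31239010 to 31324103, 85094 bases) had 2 to 6 reads in each of the 12 libraries and did not separate any groups. The third (31237743 to 31322442, 84700 bases) had 0, 0 and 2 reads in the sensitive HCT116 libraries, 9, 6 and 4 in the resistant ones, and 1 read in either Lovo group. It lay under the count minimum for the test. Its summed reads, scaled by library size, were 8.61-fold higher in resistant than in sensitive HCT116, with a 95% counting interval of 2.08 to 76.2.

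DSG3 encodes a desmosomal cadherin best known from stratified epithelia. Its main member (chromosome 18, 28968330 to 29049312, 80983 bases, plus strand, no circBase identifier) had 0 reads in all 6 HCT116 libraries. In Lovo it had 28, 20 and 23 reads in the sensitive libraries and 20, 21 and 15 in the resistant ones. All 6 Lovo libraries were high. The levels in Lovo were 3580 ± 505 and 2431 ± 318 CPM (SD, n = 3 each), without overlap between the states once scaled, and the difference did not pass (log2 fold change -0.55 ± 0.44, edgeR adjusted p = 0.904). A second member starting 10 bases later and ending at the same base had 2 and 8 reads in the Lovo groups and 0 in HCT116. No exonic DSG3 circRNA was listed. The neighbouring genes in RefSeq order are the cadherin genes DSG4 and DSG2.

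MED13L had 10 members, of which hsa_circ_0000443 (chromosome 12, 116668338 to 116675510, 7173 bases) held 125 of the 200 reads. It was seen in all 12 libraries, with 12, 16 and 17 reads in the sensitive HCT116 libraries and 4, 11 and 21 in the resistant ones. The Lovo libraries had 5, 14 and 3 reads when sensitive and 8, 9 and 5 when resistant. The levels overlapped between drug states in both lines, and between the lines in either state.

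EPB41L5, which encodes a cytoskeletal adaptor of the FERM family, had a pair of members that share the start at 120885264 on chromosome 2 and end within 5 bases of each other. The first, hsa_circ_0008278 (47317 bases), had 1, 4 and 9 reads in the sensitive HCT116 libraries and 29, 21 and 18 in the resistant ones, and in Lovo 2, 1 and 8 when sensitive and 3, 6 and 8 when resistant. Each resistant HCT116 library lay above each of the other 9. The second, hsa_circ_0006834 (47313 bases), had 1, 1 and 6 reads in the sensitive HCT116 libraries and 4, 5 and 7 in the resistant ones, and in Lovo 0, 2 and 0 when sensitive and 5, 7 and 5 when resistant. It was low in sensitive Lovo, where each library lay under each resistant one.

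The next most read members were seen in both lines. EMB, an immunoglobulin-superfamily partner of monocarboxylate transporters, had 30 and 29 reads on hsa_circ_0001481 in the sensitive and resistant HCT116 groups and 10 and 3 in the Lovo groups. MRPL22, a mitochondrial ribosomal protein, had 15 and 26 on hsa_circ_0128404 in the HCT116 groups and 15 in either Lovo group. ZNF609 hsa_circ_0000615, which spans 874 bases and is a widely studied circRNA of a single exon, had 8 and 16 in the HCT116 groups and 27 and 15 in the Lovo groups. In the table used here it is classed as sense overlapping all the same. MORC3, an ATPase of nuclear bodies, had 10 and 22 on hsa_circ_0001189 in the HCT116 groups and 18 and 13 in the Lovo groups. For these 4 circRNAs the libraries of the groups overlapped between drug states in both lines.

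Of the other tested members, 4 were called in no comparison. WHAMMP1, a pseudogene whose reads are uncertain because near-identical copies exist, had 0, 1 and 0 reads in the sensitive and 0, 1 and 1 in the resistant HCT116 libraries, and in Lovo 5, 3 and 4 when sensitive and 4, 2 and 6 when resistant. Each Lovo library lay above each HCT116 library (edgeR adjusted p = 0.129 for the sensitive and 0.255 for the resistant cells). NIPBL, which loads cohesin onto chromosomes, had 3 and 4 reads on hsa_circ_0128921 in the HCT116 groups and 8 and 18 in the Lovo groups. ANKRD11, a chromatin regulator, had 20 and 19 on hsa_circ_0004566 in the HCT116 groups and 8 and 7 in the Lovo groups. ZNF215 had 1 and 7 on hsa_circ_0096334 in the HCT116 groups and 11 and 6 in the Lovo groups, with at least 1 library at 0 in each group.

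**Figure D4:**
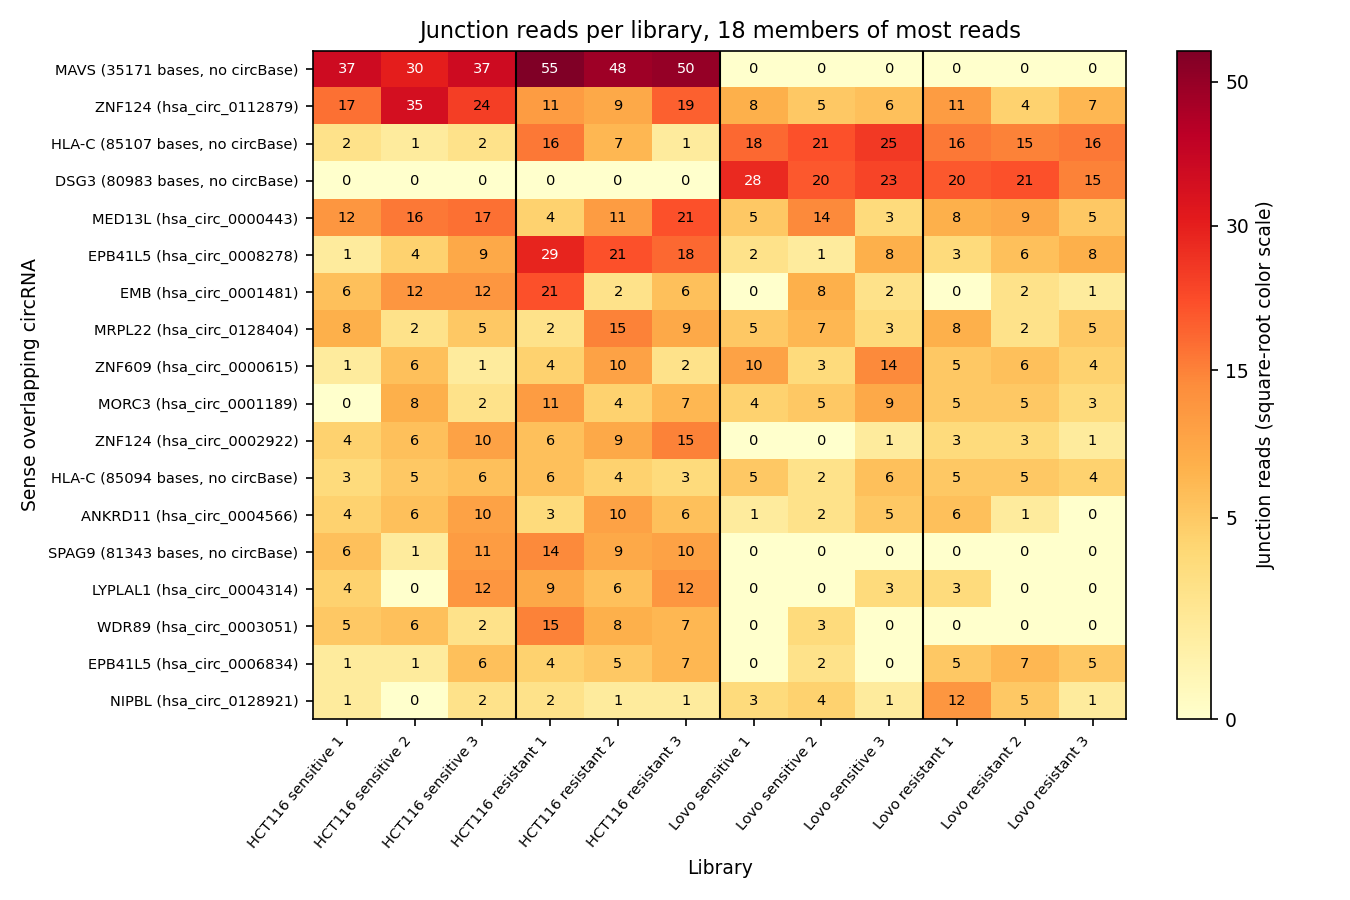
Junction reads (printed in each cell, color on a square-root scale) of the 18 sense overlapping circRNAs with most reads (rows) in the 12 libraries (columns, black lines between the 4 groups). MAVS and SPAG9 are at 0 in all Lovo columns, DSG3 is at 0 in all HCT116 columns, and MED13L has reads in all 12 columns.

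Sensitive HCT116 against sensitive Lovo asked how the parental lines differ. The test called 6 of the 20 members, 4 higher and 2 lower in HCT116, while 14.3% of all 300 circRNAs were called (8.67% higher, 5.67% lower). Higher in HCT116 were MAVS, SPAG9, which encodes a scaffold protein of JNK signalling, and both ZNF124 circRNAs. Lower were DSG3 and the longest HLA-C junction. MAVS, SPAG9 and DSG3 had 0 reads in one line, so they reached the count minimum only through the line where they are high. ZNF124 hsa_circ_0002922 likewise reached it only through HCT116. The calls and p-values of these circRNAs are given with that limit. An unadjusted edgeR p under 0.05 was met by 9 of the 20 members and by 88 of all 300 circRNAs. The median log2 difference was 0.44 over the 20 members and -0.06 over all 300.

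The MAVS circRNA was at least 29.7-fold higher in sensitive HCT116, counted against a floor of 3 reads over the 3 Lovo libraries (edgeR adjusted p = 1.69e-18, higher in 3 of 3 libraries). The DSG3 circRNA was at least 27.6-fold higher in Lovo against the same floor (edgeR adjusted p = 1.97e-13). The HLA-C junction was lower in HCT116 by -3.80 ± 0.61 log2 units (edgeR adjusted p = 2.61e-08). ZNF124 hsa_circ_0112879 was higher by 1.76 ± 0.48 (edgeR adjusted p = 0.00362) and hsa_circ_0002922 by 3.69 ± 1.17 (edgeR adjusted p = 0.0162). SPAG9 (chromosome 17, 49197715 to 49279057, 81343 bases, no circBase identifier) had 6, 1 and 11 reads in sensitive HCT116 and 0 in Lovo, at least 5.14-fold higher (edgeR adjusted p = 0.00492). Leaving out single libraries ended calls of ZNF124 alone. For hsa_circ_0112879 the edgeR adjusted p was 0.0959 without sensitive HCT116 replicate 2. For hsa_circ_0002922 it was 0.0637 without sensitive HCT116 replicate 3, 0.0813 without sensitive Lovo replicate 1 and 0.0828 without sensitive Lovo replicate 2. With no count minimum the calls were MAVS, DSG3 and HLA-C.

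Resistant HCT116 against resistant Lovo gave 7 calls among the 20 members, 6 higher and 1 lower in HCT116, while 16.7% of all 300 were called (8.33% in either direction). Again 9 of the 20 members had an unadjusted p under 0.05, beside 78 of all 300 circRNAs. The median log2 difference was 0.62 over the members and -0.01 over all 300. MAVS was at least 45.9-fold higher in HCT116 (edgeR adjusted p = 3.28e-24), SPAG9, with 14, 9 and 10 reads, at least 9.90-fold (edgeR adjusted p = 0.000179), and DSG3 at least 20.7-fold higher in Lovo (edgeR adjusted p = 3.16e-11). These 3 were called in both states, which is 50% of the calls in sensitive and 42.9% of those in resistant cells.

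The remaining calls between the resistant lines were all higher in HCT116. WDR89, a WD-repeat protein, had 15, 8 and 7 reads on hsa_circ_0003051 in resistant HCT116 and 0 in resistant Lovo, at least 9.0-fold higher (edgeR adjusted p = 0.000515). In the sensitive cells the same circRNA had 5, 6 and 2 reads in the HCT116 libraries and 0, 3 and 0 in the Lovo ones, where the groups overlapped. WDR89, like EMB and LYPLAL1 below, reached the count minimum only through HCT116, where it is high. EPB41L5 hsa_circ_0008278 was higher by 1.82 ± 0.55 log2 units (edgeR adjusted p = 0.00901) and EMB hsa_circ_0001481 by 2.96 ± 0.89 (edgeR adjusted p = 0.00893). EMB had 21, 2 and 6 reads in resistant HCT116 and 0, 2 and 1 in resistant Lovo, so that a single library held most of its reads. LYPLAL1, which resembles lysophospholipases, had 9, 6 and 12 reads on hsa_circ_0004314 in resistant HCT116 and 3, 0 and 0 in resistant Lovo, a difference of 2.87 ± 1.02 (edgeR adjusted p = 0.0326).

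These last 3 calls depended on single libraries. Without resistant HCT116 replicate 1 the edgeR adjusted p was 0.355 for EMB, 0.0793 for EPB41L5 and 0.0616 for LYPLAL1, while the HLA-C junction was then lower in HCT116 by -2.01 (edgeR adjusted p = 0.0172). Without resistant Lovo replicate 1 it was 0.103 for EMB and 0.118 for EPB41L5, and without resistant Lovo replicate 2 it was 0.0539 for EPB41L5 and 0.152 for LYPLAL1 (edgeR adjusted p in each case). LYPLAL1 also missed without resistant HCT116 replicate 3 (edgeR adjusted p = 0.150) or resistant Lovo replicate 3 (edgeR adjusted p = 0.151), and with DESeq2. With limma-voom EMB missed (adjusted p = 0.0544) and the HLA-C junction was called (adjusted p = 0.0202). MAVS, SPAG9, DSG3 and WDR89 kept their calls in each of these.

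Other members with at least 10 reads were in one line only and lay mostly under the count minimum. In HCT116 these included NMT2, an enzyme that attaches myristate to proteins (chromosome 10, 15154795 to 15231953, 77159 bases). It had 3, 4 and 1 reads in sensitive and 1, 11 and 9 in resistant cells. CMTM7 hsa_circ_0007783 (12703 bases) had 2, 0 and 6 reads in sensitive and 0, 3 and 4 in resistant HCT116. SLC39A11, a zinc transporter (chromosome 17, 70588342 to 70645407, 57066 bases), had 2, 1 and 1 in sensitive and 14, 4 and 5 in resistant HCT116. All 3 resistant SLC39A11 values lay above the sensitive ones, and the ratio of summed reads, scaled by library size, was 5.21 with a counting interval of 1.78 to 20.7. In Lovo, TBC1D12 hsa_circ_0094547 had 9 and 5 reads in sensitive and resistant cells. TULP4 hsa_circ_0131194, G024201 hsa_circ_0007379 and a junction of the MHC class II gene HLA-DRB1 (chromosome 6, 32487205 to 32549391, 62187 bases) each had 10 and 3. HLA-DRB5 is the next gene to HLA-DRB1 and nearly identical, so that count is uncertain.

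Resistant against sensitive HCT116 asked which members accompany resistance in that line. The call was 1 of 20 members, EPB41L5 hsa_circ_0008278, which rose by 2.14 ± 0.57 log2 units from 557 ± 430 to 2668 ± 646 CPM (SD, n = 3 each, edgeR adjusted p = 0.0165). Of all 300 circRNAs 1% were called, 0.667% higher and 0.333% lower. The ratio of summed reads, scaled by library size, was 4.40 with a counting interval of 2.45 to 8.47. It passed in 9 of 15 alternatives, with edgeR, limma or DESeq2 adjusted p from 0.0023 to 0.668. The edgeR adjusted p was 0.173 and 0.182 without sensitive replicates 1 and 2, and 0.222 and 0.0998 without resistant replicates 1 and 2. DESeq2 (adjusted p = 0.0552) and edgeR with no count minimum also missed the threshold.

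The circRNA that ends 4 bases earlier, hsa_circ_0006834, had a log2 fold change of 0.87 ± 0.98 in the same comparison (edgeR adjusted p = 0.919). Members next to the threshold were the longest HLA-C junction, at 2.03 ± 0.70 (edgeR adjusted p = 0.18), and ZNF124 hsa_circ_0112879, at -1.10 ± 0.43 (edgeR adjusted p = 0.22), and neither passed. The HLA-C junction was called when resistant replicate 3, which held 1 read, was left out (2.54, edgeR adjusted p = 0.0303). EPB41L5 hsa_circ_0008278, this HLA-C junction and ZNF124 hsa_circ_0112879 were the 3 members of 20 with an unadjusted p under 0.05. Of all 300 circRNAs, 30 had one. The median log2 fold change was 0.61 over the 20 members and -0.01 over all 300.

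Resistant against sensitive Lovo gave 0 calls among the 20 members, with edgeR as with DESeq2 and limma-voom, and 0% of all 300 circRNAs were called. An unadjusted p under 0.05 was met by 17 of all 300 circRNAs and by 1 of the 20 members. That member was EPB41L5 hsa_circ_0006834, whose log2 fold change was 2.69 ± 1.20 (edgeR adjusted p = 0.662). The other EPB41L5 circRNA was at 0.40 ± 0.69. Next were WDR89 at -3.36 ± 1.83 and EMB at -1.83 ± 1.01, both at an edgeR adjusted p of 0.662. The WDR89 value rests on 3 reads in 1 sensitive library. The median log2 fold change was -0.21 over the members and 0.03 over all 300.

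The effects of the lines were also compared with each other. The difference, HCT116 minus Lovo, was called for 0 of 20 members, against 0.333% of all 300. An unadjusted p under 0.05 was met by 29 of all 300 circRNAs and by 2 of the 20 members. These 2 members were the longest HLA-C junction (2.69 ± 0.82, edgeR adjusted p = 0.108) and WDR89 (4.35 ± 2.05, edgeR adjusted p = 0.45). The HLA-C difference passed when the count minimum was 10 (edgeR adjusted p = 0.0248) or when resistant HCT116 replicate 3 was left out (edgeR adjusted p = 0.0121). For the EPB41L5 pair it was 1.74 ± 0.92 (edgeR adjusted p = 0.52) for hsa_circ_0008278 and -1.82 ± 1.57 (edgeR adjusted p = 0.786) for hsa_circ_0006834. A difference between the lines was therefore not shown for either circRNA. The median was 0.76 over the members and -0.17 over all 300.

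**Figure D5:**
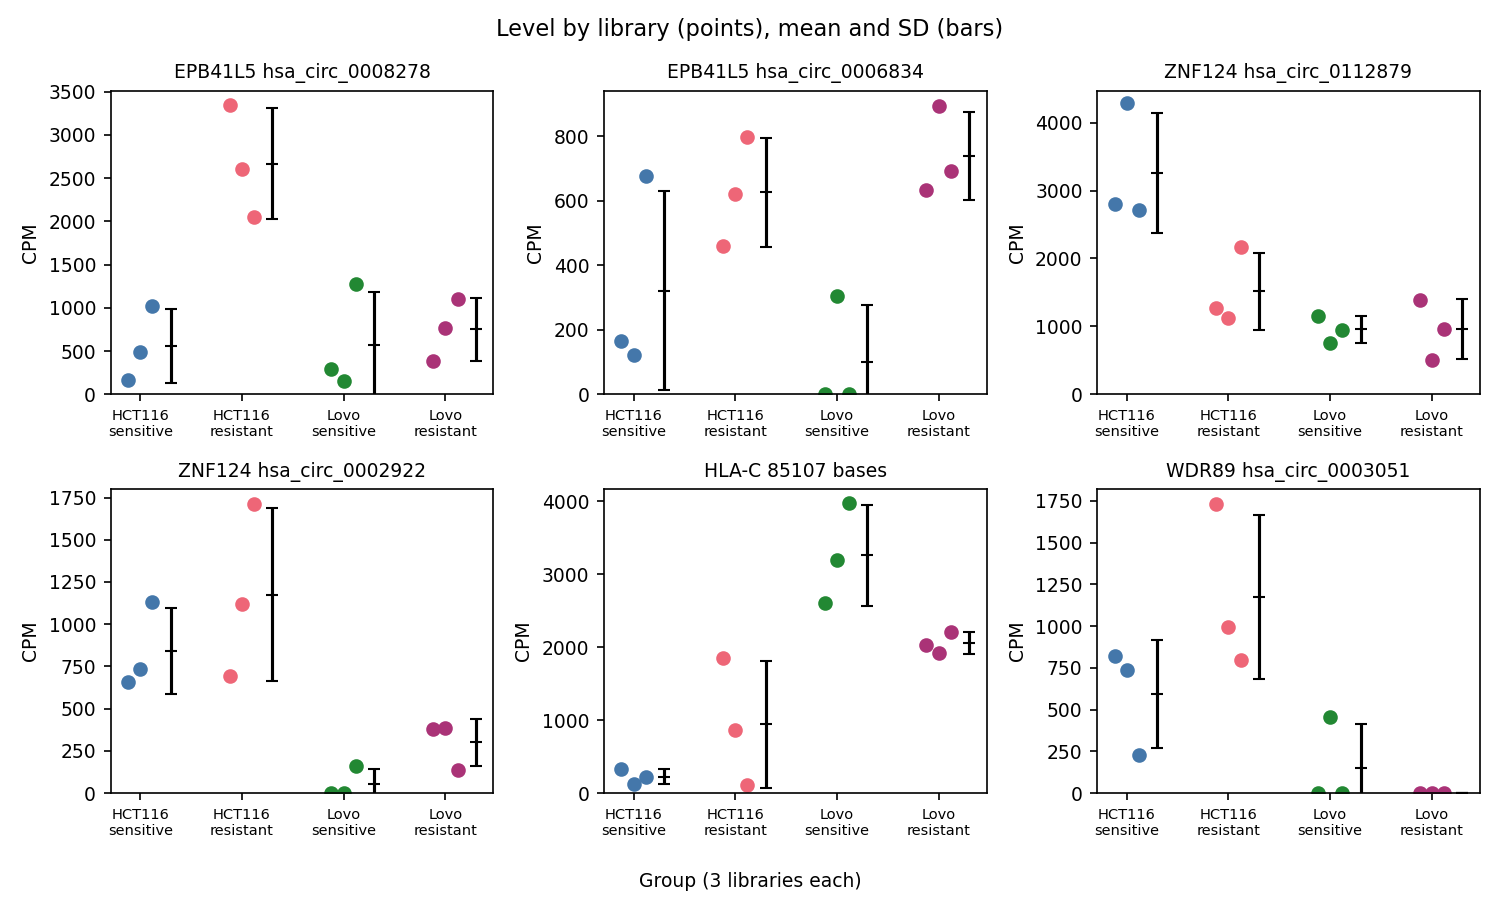
Level in CPM (y axis) of 6 sense overlapping circRNAs in the 3 libraries (points) of each group (x axis), with the mean and SD beside them and bars cut off at 0. EPB41L5 hsa_circ_0008278 stands at 2668 CPM in resistant and 557 CPM in sensitive HCT116, and the HLA-C junction at 226 CPM in sensitive HCT116 and 3255 CPM in sensitive Lovo.

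Members were also grouped by the function of the host, using lists chosen for a fluoropyrimidine and a colorectal tissue. Adhesion, junction and EMT hosts had 23 members with 323 reads, 19.4% of all junction reads of these genes, and EPB41L5 and DSG3 made up most of them. This list had 35 and 87 reads in the sensitive and resistant HCT116 groups, and 96 and 105 in the Lovo groups. It was the one list with tested members, namely 3. Of these, 1 rose in resistant HCT116, where 0.667% of all 300 circRNAs were called higher, and 0 changed in Lovo, where 0% were called. Among the sensitive cells 1 was lower in HCT116 than in Lovo (DSG3), against 5.67% of all 300 called lower. Among the resistant cells 1 was higher and 1 lower, against 8.33% called higher and 8.33% called lower.

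Genes of fluoropyrimidine and folate metabolism had 10 members in 5 of 28 listed genes, and 85 of the 185 junction reads of these genes (45.9%), against 9.44% of reads over the whole table. They came largely from a pair of hosts with no other circRNA class listed. DCTD, the deaminase that supplies dUMP to thymidylate synthase, had 47 reads on 5 members. UMPS, which converts orotate and also 5-Fu to the nucleotide monophosphate, had 33 reads on 2. DCTD hsa_circ_0002212 (chromosome 4, 183812556 to 183836728, 24173 bases) had 2, 6 and 2 reads in the sensitive HCT116 libraries and 4, 1 and 1 in the resistant ones, and in Lovo 5, 0 and 1 when sensitive and 2, 1 and 1 when resistant.

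A longer DCTD junction (183795723 to 183836728, 41006 bases) had 7 and 8 reads in the HCT116 groups and 0 in both Lovo groups. UMPS hsa_circ_0006118 (chromosome 3, 124456415 to 124463050, 6636 bases) had 0, 0 and 8 reads in the sensitive HCT116 libraries and 0, 2 and 2 in the resistant ones, and in Lovo 3, 0 and 0 when sensitive and 0, 3 and 4 when resistant. UMPS hsa_circ_0121729, with the same upper end, had 2 reads in each sensitive and 0 in each resistant HCT116 library. All 4 of these lay under the count minimum, and apart from the last their libraries overlapped between drug states. The list as a whole had 37 and 20 reads in the HCT116 groups and 12 and 16 in the Lovo groups, which is too few for a test of any member.

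In the other lists members held a smaller part of the reads. The percentages were 5.38% for chromatin modifiers (45 members, 97 reads), 5.14% for splicing and circRNA biogenesis factors (24 members, 46 reads), 5.38% for DNA damage response and repair (27 members, 65 reads) and 2.40% for ubiquitin ligases and deubiquitinases (34 members, 70 reads). The splicing list had 18 and 22 member reads in the sensitive and resistant HCT116 groups and 2 and 4 in the Lovo groups. In the same order, chromatin modifiers had 25, 26, 24 and 22, DNA damage genes 21, 21, 6 and 17, and ubiquitin genes 13, 22, 13 and 22. Junction reads of all circRNAs were 25609, 26339, 18289 and 22000 in these groups. No member of the splicing list had 10 reads. WHSC1, a histone methyltransferase, had 15 reads on a junction of 43097 bases, POLQ, a DNA polymerase of end joining, 13 on hsa_circ_0121606, and FANCL, a ligase of the Fanconi anaemia pathway, 11 on hsa_circ_0120485. No member of these 4 lists reached the count minimum.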

How the data were processed

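Directional libraries of rRNA-depleted total RNA were made from each sample, per the labels' protocols. The authors deposited 1 table of raw counts, each the number of back-splice junction reads of a circRNA in a library per the file headers, next to position, host gene, class, source and circBase identifier. The submitters' processing notes list hg19, STAR 2.5.1b, cutadapt 1.9.3 and edgeR 3.16.5 without saying what each was used for. Caller, annotation and any minimum for listing a junction: not given in the sources used here. Coordinates are 1-based on hg19. No genome of that build was used here, and no junction sequence is printed.

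The members were the rows of class sense overlapping. Members, gene lists and tests were chosen with earlier results of these data known. Libraries were grouped by line and phenotype, 3 to a group. Of the 1914 host names, 1709 matched a current and 1801 a current or older RefSeq symbol. An end was called shared only when it was the same base, and near junctions were within 5 bases at both ends.

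The main test used edgeR 4.0.16 (R 4.3.3) on these counts: TMM scaling, filterByExpr set to at least 5 reads a library and 15 in total, and the quasi-likelihood F-test in 1 fit of all 12 libraries with 4 group means. Calls were those under 0.05 after Benjamini-Hochberg adjustment over every circRNA tested. The SE is the log2 fold change divided by the square root of F. The script was tested on simulated data. Alternatives were RLE size factors, no TMM, DESeq2 1.42.0, limma-voom (limma 3.58.1), no filter, a minimum count of 10, the compared groups alone, the replicate number as a block, leaving out each library, and merging junctions within 5 bases. Ratios of summed reads are scaled by effective library size and carry exact 95% counting intervals, and a group at 0 was set to a floor of 3 reads over the group. Reads are not independent molecules, so intervals and floors cover counting error only. With 5654 to 10535 reads in a library, most members could not be tested.

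Shares of reads on members, of reads with circBase identifiers and mean reads are given per library without a p. Exact permutation tests had been planned for them, but they are scores over a class chosen with results known.

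Members were named by a rule: the 12 most read, the called members and the next by p, the longest and shortest spans, the hosts with most members or reads, the most read in a single line, and those of the gene lists. HLA-C at 84700 bases, NMT2 and SLC39A11 are among the single-line, long or circBase-free members.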

Additional observations from a re-analysis of the deposited data

How the results depend on the processing

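The 6 and 7 calls between the lines stayed within 1.5 times under RLE factors, no TMM, DESeq2, limma-voom and the compared groups alone. The same held for merged junctions and each library left out. They fell to 3 and 4 with no filter, and the second to 4 at a minimum count of 10. Members tested were 20 in the main fit, 2091 with no filter and 7 at a minimum count of 10. With the compared groups alone they were 7 for the sensitive and 14 for the resistant lines. The HCT116 resistance call went from 1 to 0 with DESeq2 or no filter and ranged from 0 to 2 without single libraries. The difference of the effects had 1 call at a minimum count of 10 and 0 to 1 without single libraries, against 0. Lovo had 0 calls throughout. The share on members in resistant minus sensitive Lovo reversed to 0.00508 points without spans over 50000 bases, 0.206 without the 12 most read members and 0.383 after thinning, and ranged from -0.531 to 0.0313 without single libraries. The circBase difference was -41.4 points without spans over 50000 bases. The mean read difference was -0.467 for junctions with at least 2 reads and -0.416 without the 12 most read members. Limited to members with at least 1 and at least 5 reads, circBase covered 29.1% and 65.0%, and 27.6% and 90.9% were seen in at least 2 libraries. The median span was 13218 bases for at least 5 reads. For single members, alternatives gave 27 lost calls, 9 gained calls, 55 changes of sign and 1084 values with the same sign and call. The causes were not tested.

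The changes of sign fell on 19 of 79 log2 fold changes. None of these 19 was called, and 0 of the 55 passed the threshold. Ranges without single libraries follow. In resistant against sensitive HCT116 they were -0.0273 to 2.11 for ZNF609, -0.0975 to 1.39 for MRPL22 and -1.40 to 0.235 for EMB. In Lovo they were -3.30 to 3.19 for LYPLAL1, -0.0798 to 1.67 for EPB41L5 hsa_circ_0008278, -0.245 to 0.367 for ZNF124 hsa_circ_0112879, -0.579 to 0.617 for MED13L, -0.540 to 0.223 for MRPL22 and -0.484 to 0.218 for HLA-C (85094 bases). For the difference of the effects they were -2.61 to 3.97 for LYPLAL1, -1.06 to 0.166 for MED13L and -0.485 to 0.251 for HLA-C (85094 bases). Between the sensitive lines they were -0.583 to 1.32 for EPB41L5, -0.814 to 0.241 for MRPL22 and -0.501 to 0.182 for HLA-C (85094 bases). Between the resistant lines they were -0.990 to 1.83 for ZNF215, -0.0373 to 1.03 for MED13L, -0.872 to 0.408 for ZNF609 and -0.00386 to 1.18 for MRPL22. Other settings turned the sign of ZNF215 (resistant lines, -0.102 without TMM and -0.317 with the replicate block) and MED13L (Lovo, 0.0162 with limma-voom). They also turned ZNF609 (resistant lines, 0.0517 with RLE, 0.0587 with DESeq2, 0.0374 with no filter, 0.00962 with the compared groups alone, 0.0254 with merged junctions) and ZNF124 (Lovo, 0.0797 with no filter, 0.114 with merged junctions). EPB41L5 between the sensitive lines was -0.0506 with RLE, -0.200 without TMM and -0.0721 with DESeq2. HLA-C (85094 bases) was 0.0193 with merged junctions in Lovo, and for the difference 0.0642 with RLE, 0.0186 without TMM and 0.0623 with DESeq2.

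Deviations of same-numbered libraries from their group means correlated between -0.0448 and 0.0625 over 300 circRNAs. With few reads on most circRNAs, counting error lowers such correlations, so pairing by replicate number was not excluded. With the replicate block the calls were 1, 0, 0, 6 and 7 in the order HCT116, Lovo, difference, sensitive lines and resistant lines, equal to those without it. The alternative leaving out spans over 100000 bases changed nothing, since no span is that long.

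Depth limited testing to 20 members. In a library of 5654 reads a member at 0 was not detectable at this depth, which does not show that it is absent. The 582 members with 0 reads throughout could not be compared.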
